A study of Mus musculus with 9 samples.

Results

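Enzymes that write or erase marks on histones and on DNA were followed as a family of 59 genes, out of 18193 genes that the array measured under a single gene symbol. The members are the numbered Hdac, Sirt, Kdm, Kmt, Dnmt, Tet and Setd genes. They comprise 11 histone deacetylases, 7 sirtuins, 18 histone demethylases, 16 genes of the Kmt and Setd series, 4 DNA methyltransferase genes and 3 TET genes. Each gene was represented by the probe set, a group of oligonucleotides against its transcript, with the highest mean signal. Of the 59 members, 55 passed a filter on low signals and were tested. Hdac11, Kdm4d, Kdm5d and Tet3 did not pass it.

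The arrays profiled total RNA of dendritic cells derived from bone marrow of 129/SvEv mice by culture in GM-CSF, which drives marrow progenitors towards myeloid cells, over 9 to 12 days. There were 3 groups of 3 arrays: wild-type cells left unstimulated in media (WT media), wild-type cells given purified DNA of tumor cells (WT tumor DNA), and STING knockout cells given the same kind of DNA (STING tumor DNA). The DNA was carried into the cells with a lipid transfection reagent and RNA was taken after 7 h. STING is the adaptor that relays cytosolic DNA sensing to interferon genes, so the comparisons ask which transcripts differ after DNA and how they stand without STING. Knockout cells without DNA and wild-type cells with reagent only were not analysed here, so DNA and reagent cannot be told apart, and neither can the genotype and the response of knockout cells. Whether the arrays of a group stand for separate animals or cultures is not in the labels, and p-values therefore reflect the spread among arrays alone, part of which may be technical.

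Histone deacetylases and sirtuins remove acetyl groups from lysines, which generally goes with less accessible chromatin, whereas methylation of a lysine can mark active or silent genes depending on its position. Kmt and Setd enzymes add such methyl groups and Kdm enzymes remove them. DNA methyltransferases methylate cytosine, and TET enzymes oxidise the methyl group as a step towards its removal. In myeloid cells several of these enzymes are known as brakes or aids of inflammatory and interferon gene transcription, and many also act on proteins other than histones.

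Sting1, the targeted gene, read 246, 336 and 327 signal units on the knockout arrays and 646 to 2258 on the wild-type arrays. Of 12 dendritic cell and macrophage markers 11 were tested and 1 was called after DNA, and their summed signal was 122245 to 141370 in media, 128786 to 150536 with DNA and 106888 to 131180 in the knockout. No T or NK cell marker passed the filter, and the summed signal of the 6 on the array was at most 152. Some markers of other cells or states were called as well. Among 9 proliferation markers, Pcna was called higher after DNA (0.53, limma adjusted p = 0.0192), while the other 8 were not called, at -1.05 to -0.44 after DNA and 0.59 to 2.02 between genotypes. Their medians with Pcna were -0.72 and 0.79, and their summed signal, of which Pcna alone gave 9568 to 18028, was 13534 to 28324 in media, 17533 to 23819 with DNA and 18590 to 24697 in the knockout. Of 7 mast cell and basophil markers 1, Hdc, was called higher after DNA, and 4, Hdc among them, lower between genotypes (median -1.51). Hdc read 6.58 to 123 in media and 803 to 2050 on the WT tumor DNA arrays. The others differed by -0.07 to 0.59 after DNA. The mast cell and basophil sums were 749 to 1672, 1732 to 3946 and 462 to 800. The plasmacytoid markers Bst2 and Tcf4, 2 of the 4 tested, were called higher after DNA and lower in the knockout. Neither Ly6d, at 0.86 after DNA and -1.17 between genotypes, nor Siglech, at -0.68 and 1.04, was called. The plasmacytoid sums were 5272 to 7859, 18942 to 24598 and 3108 to 6776. Bst2 alone gave 15041 to 18984 on the WT tumor DNA arrays. Sums of 8 neutrophil markers ran from 17150 to 91292 on the wild-type arrays and from 35008 to 41848 in the knockout, where Mpo was called lower. None of the tested B cell and fibroblast markers was called, yet their signals were uneven. The B cell sums were 286 to 1247 in media, 360 to 2280 with DNA and 148 to 307 in the knockout. The fibroblast sums were 568 to 5311, 679 to 4503 and 907 to 6173. Their medians between genotypes were -1.22 (B cell) and 0.96 (fibroblast). The part of all these markers in the results below was not tested. In such mixed cultures fewer cells of a type and less RNA per cell cannot be told apart.

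STING tumor DNA arrays 2 and 3 stood apart from the other 7. Xist, the RNA that silences an X chromosome in female cells, read 7431 to 13732 on the other arrays but 68.6 and 54.1 on these. The Y-linked gene Eif2s3y read 2301 and 2335 there and at most 34.8 elsewhere. STING tumor DNA array 1 thus differed from its own replicates in these genes, and the differences of the members called between genotypes, and of the leading members against media, are also given without arrays 2 and 3. Arrays of the same number also deviated together, and those numbered 1 had the highest signal of a spiked hybridisation control, at 307 to 431 against 87.3 to 157, so values within each number are given for the leading members.

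RefSeq promoter windows, the 250 bases before a transcription start in the GRCm38.p6 build, were at hand for 48 of the 59 members. Such windows of the members were rich in G and C. Their median GC content was 61.8% over 70 windows, against 52.4% over all 32851 windows. CpG-rich windows, with a GC content over 50% and an observed-to-expected CpG ratio over 0.6, made up 65.7% of the members' windows and 30.8% of all. The core of the interferon-stimulated response element, GAAA followed by another GAAA after 2 free bases, searched on both strands, was in 0 of the 70 windows and in 2.98% of all windows. The STAT-type motif TTCNNNGAA was in 7 of the members' windows and in 7.02% of all, the AP-1 motif TGACTCA in 3 (4.29%) and in 4.46%, and the E-box CACGTG in 5 (7.14%) and in 6.02%. Neither of 2 NF-kappaB consensus sites was in a member's window, and they were in 0.140% and 0.0852% of all windows. A match is only a description of letters, and the absence of one says nothing about a factor.

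The stretches below are printed for Tet1, whose signal stood clear of the floor with DNA in wild-type cells, and for 3 named members with a searched motif, which stands in capitals. Each runs 5′ to 3′ on the gene's own strand. The Tet1 stretch (chr10:62887325-62887474, minus strand, bases -150 to -1 from the start) holds none of the motifs.
Tet1: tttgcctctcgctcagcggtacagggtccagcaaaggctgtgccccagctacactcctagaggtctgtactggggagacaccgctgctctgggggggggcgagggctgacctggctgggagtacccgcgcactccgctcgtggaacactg
The Setd7 stretch (chr3:51560894-51560973, minus strand, bases -150 to -71) carries a STAT-type motif.
Setd7: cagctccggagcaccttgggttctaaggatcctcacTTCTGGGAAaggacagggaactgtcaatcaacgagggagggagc
The Sirt1 stretch (chr10:63339066-63339165, minus strand, bases -130 to -31) carries a pair of E-boxes.
Sirt1: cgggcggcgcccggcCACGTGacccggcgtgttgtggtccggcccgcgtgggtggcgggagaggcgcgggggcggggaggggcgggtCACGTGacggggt
The Kdm6a stretch (chrX:18162495-18162574, plus strand, bases -80 to -1) carries an E-box close to the start.
Kdm6a: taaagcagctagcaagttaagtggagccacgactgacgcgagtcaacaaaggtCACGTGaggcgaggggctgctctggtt

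In wild-type cells tumor DNA was followed by lower transcript levels of 13 of the 55 tested members and higher levels of 3. The deepest falls were those of Sirt3, a mitochondrial deacetylase, of Kdm2b, a demethylase that brings Polycomb complexes to CpG islands, and of Kmt5c, which methylates histone H4. Hdac1 and Kdm1a rose, as did Tet1, which passed the filter through its signal with DNA and so had to differ. Differences are of log2(signal + 16), which understates changes of weak signals, and calls rest on a limma fit over all 12586 genes tested, with the threshold at an adjusted p of 0.05. Of all these genes, 33.6% were called, 9.94% higher and 23.6% lower, beside 29.1% of the members, 5.45% higher and 23.6% lower. The members' share was therefore near that of genes at large, and the counts of families below stand against the same shares. Their median difference was -0.27, against -0.20 over all genes, and it was -0.37, -0.18 and -0.20 within the arrays numbered 1, 2 and 3.

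The signals of the 2 groups did not overlap for 28 members, 6 higher and 22 lower with DNA, which is 50.9% of those tested beside 46.4% of all genes, 15% of which were higher and 31.4% lower. Unadjusted p-values were below 0.05 for 43.6% of the members and 44.1% of all genes, and the difference was below 0 for 37 members (67.3%) beside 61.2% of all genes. How many genes went down depended on how the arrays were scaled. Centring each array on its median moved the median of all genes by over 0.1, from -0.20 to 0.11. It gave 2038 genes higher and 1451 lower in place of 1251 and 2973, and 8 members higher and 5 lower. Quantile normalization gave 1393 genes higher and 2192 lower, and 6 members higher and 8 lower. No called member changed sign under either scaling, but calls ended. Quantile normalization kept 11 of the 16 calls and lost Dnmt3b (adjusted p 0.0928), Hdac5 (0.0983), Kdm1b (0.104), Kmt2e (0.0621) and Sirt7 (0.0850). Median centring kept 8 and lost those 5 (0.100 to 0.457) and Hdac2 (0.0744), Kmt2c (0.0581) and Setd6 (0.0586). Newly called under both were Hdac7, Sirt1 and Tet2, and under centring alone Kdm3a (0.0299) and Kdm7a (0.0160), all of them higher after DNA.

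**Figure D1:**
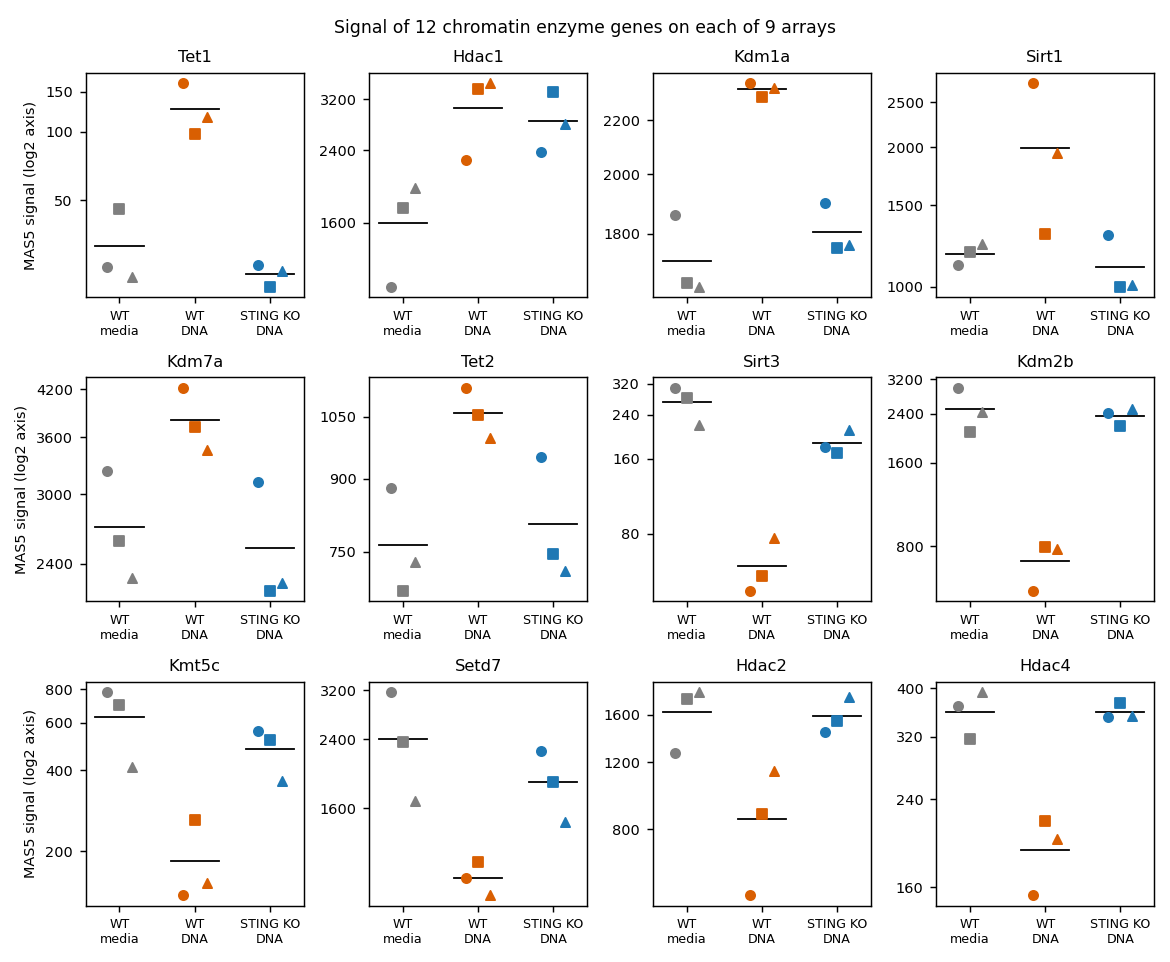
MAS5 signal (vertical, log2 axis, range set for each gene) of 12 members on 9 arrays. Circles, squares and triangles are the arrays numbered 1, 2 and 3 of WT media, WT tumor DNA and STING knockout with tumor DNA, and lines are the means of the 3 signals. Tet1 is at 98.3 to 164 with DNA in wild-type cells and at 20.7 to 45.9 elsewhere, Kdm2b at 550 to 796 against 2071 to 2981, and Hdac1 is the gene whose knockout arrays (2373 to 3333) lie with the WT tumor DNA arrays.

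Class I histone deacetylases, the nuclear catalytic subunits of corepressor complexes, did not move together. Hdac1 read 1116, 1741 and 1948 on the media arrays and 2271, 3386 and 3493 after DNA. Every DNA array was above every media array, and the rise was 1.91-fold (log2 0.94 ± 0.25 SE, limma adjusted p = 0.0164). Hdac2, its close relative in the same complexes, read 1269, 1762 and 1840 in media and 535, 877 and 1137 after DNA. It fell without overlap, by 0.97 ± 0.26 on the log2 scale (adjusted p = 0.0188), so the pair moved in opposite directions. Within each number Hdac1 was higher with DNA by 1.02, 0.95 and 0.84 and Hdac2 differed by -1.22, -0.99 and -0.69. Hdac3, the catalytic subunit of NCoR and SMRT complexes, read 1112 to 1147 in media and 1036 to 1141 after DNA, a log2 difference of -0.08 ± 0.13 (adjusted p = 0.694) that turned positive under both scalings. Hdac8, also of class I, differed by -0.47 ± 0.26 and was not called.

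Class IIa deacetylases shuttle between nucleus and cytoplasm and bind MEF2 factors. Hdac4 read 368, 316 and 393 in media and 154, 217 and 200 after DNA, with no overlap, and fell by 0.87 ± 0.18 on the log2 scale (limma adjusted p = 0.00613). Hdac5 read 757, 515 and 486 against 243, 446 and 236, and fell by 0.92 ± 0.27 (adjusted p = 0.0240). Its DNA array 2 lay close to the media arrays, and the difference within that number was -0.20. Hdac9 read 86.4 to 93.2 in media and 63.5, 128 and 41.9 after DNA, so the groups overlapped and the difference of -0.28 ± 0.34 was not called. Hdac7 read 67.9 to 123 in media and 112 to 186 after DNA, a difference of 0.63 ± 0.27 (adjusted p = 0.103) that was called under quantile normalization (0.0247) and median centring (0.0184). Its other probe set above the filter was lower without overlap (-0.75), and the mean of both differed by -0.06, so the direction of Hdac7 was not settled. Of the class IIb genes, Hdac6, a tubulin deacetylase, read 127 to 188 in media and 6.57, 56.0 and 122 after DNA (-1.43 ± 0.60, adjusted p = 0.0922), and Hdac10 differed by -0.76 ± 0.40 (adjusted p = 0.170, and 0.0450 with the replicate number as a block). In all, 1 of 10 tested deacetylases rose and 3 fell, near the 9.94% and 23.6% of all genes. Their median difference was -0.61, beside -0.20 over all genes. It stayed below 0 under both scalings, at -0.45 with quantile normalization and -0.31 with median centring. The median of the 4 DNA methyltransferase genes did so too, at -0.50, and at -0.27 and -0.20 under these scalings.

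Among the sirtuins, NAD-dependent deacylases of nucleus, cytosol and mitochondria, Sirt3 had the deepest fall of all members. It read 309, 280 and 219 in media and 46.9, 53.9 and 76.6 after DNA. The lowest media array was well above the highest DNA array, and the fall was 3.82-fold (-1.93 ± 0.23, limma adjusted p = 5.12e-04). Within numbers 1, 2 and 3 the difference was -2.37, -2.08 and -1.34. The other mitochondrial sirtuins were not called without the block: Sirt5, a desuccinylase, read 233 to 289 in media and 66.1, 223 and 163 after DNA (-0.90 ± 0.35, adjusted p = 0.0782, and 0.0162 with the block), and Sirt4 differed by -0.16 ± 0.30. Sirt7, a nucleolar sirtuin, read 2750, 2062 and 1916 against 1541, 1568 and 1566 and fell by 0.50 ± 0.17 (adjusted p = 0.0404).

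Sirt1, the nuclear sirtuin that deacetylates histones, p53 and NF-kappaB, read 1114, 1187 and 1239 in media and 2748, 1299 and 1944 after DNA. Each DNA array was above each media array, but array 2 only just, and the difference of 0.69 ± 0.25 was not called (limma adjusted p = 0.0549). With the replicate number as a block it was called at 0.0209, and adjusted p ranged from 0.0209 to 0.0726 over the alternatives that kept all arrays. Sirt6 and Sirt2 differed by 0.11 ± 0.32 and -0.09 ± 0.14. The median of the 7 sirtuins was -0.16, and 0.14 after median centring.

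The flavin-dependent demethylases, which act on histone H3 lysine 4, went opposite ways. Kdm1a, also known as LSD1, read 1861, 1648 and 1637 in media and 2349, 2293 and 2332 after DNA. The 3 DNA values lay close together above all media values, and Kdm1a rose 1.35-fold (0.44 ± 0.12, limma adjusted p = 0.0225). Kdm1b, its relative that acts in gene bodies, read 542, 482 and 671 against 252, 282 and 423 and fell by 0.82 ± 0.22 (adjusted p = 0.0175).

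Kdm2b, which binds unmethylated CpG and recruits a variant Polycomb complex, read 2981, 2071 and 2445 in media. After DNA it read 550, 796 and 783, with no overlap. This was a 3.47-fold fall (-1.80 ± 0.19, limma adjusted p = 3.72e-04), and within numbers the difference was -2.40, -1.36 and -1.62. Its paralog Kdm2a read 761 to 862 in media and 602 to 705 after DNA, and the difference of -0.30 ± 0.14 was not called (adjusted p = 0.140).

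The remaining demethylases carry a JmjC domain, as Kdm2a and Kdm2b do, and none of these remaining 12 tested was called after DNA. Kdm7a, which acts on histone H3 lysines 9 and 27, read 3231, 2585 and 2292 in media and 4221, 3718 and 3458 after DNA. The groups did not overlap, yet the difference of 0.50 ± 0.18 missed the threshold (limma adjusted p = 0.0609), while it was called with the replicate block (0.00640, range 0.00295 to 0.104 over the alternatives that kept all arrays). Kdm6b, the inflammation-linked eraser of lysine 27 methylation, read 762 to 898 in media and 872, 540 and 867 after DNA, a difference of -0.14 ± 0.25. Kdm6a, its X-linked relative, read 1430 to 1621 and 1037 to 1317, lower without overlap but not called (-0.38 ± 0.25, adjusted p = 0.264). Kdm5b, an eraser of lysine 4 methylation, read 539 to 722 and 390 to 817 and differed by -0.10 ± 0.28. The lysine 9 erasers Kdm3a, Kdm3b, Kdm4a, Kdm4b and Kdm4c differed by between -0.27 and 0.25, the lysine 4 erasers Kdm5a and Kdm5c by -0.44 and 0.04, and Kdm8 by -0.40. Over the 16 tested demethylases the median was -0.12, and 0.06 and 0.19 under quantile normalization and median centring.

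Of the 16 Kmt and Setd genes, 5 fell and none was called higher, beside 23.6% and 9.94% of all genes. Kmt5c, which adds the silencing di- and trimethyl marks to histone H4 lysine 20, read 781, 699 and 411 in media and 137, 262 and 153 after DNA. It fell 3.23-fold without overlap (-1.69 ± 0.31, limma adjusted p = 0.00316), and its close paralog Kmt5b read 552 to 679 and 633 to 811, a difference of 0.17 ± 0.16. Kmt5a, which adds the first methyl group at that lysine, differed by -0.09 ± 0.27. Setd7, a monomethyltransferase of lysine 4 and of many other proteins, read 3174, 2359 and 1665 against 1063, 1162 and 957. Its DNA arrays were all lower, and the fall was 2.17-fold (-1.12 ± 0.24, adjusted p = 0.00660). Setd6, which methylates the NF-kappaB subunit RelA, read 258, 299 and 298 against 136, 161 and 156 and fell by 0.85 ± 0.21 (adjusted p = 0.0123).

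The MLL-type enzymes, which methylate histone H3 lysine 4 at enhancers and promoters, differed in their calls. Kmt2c read 1442, 1194 and 1135 in media and 761, 771 and 741 after DNA and fell by 0.71 ± 0.14 (limma adjusted p = 0.00525). Its partner at enhancers, Kmt2d, read 902 to 1107 against 516 to 879, lower without overlap at an adjusted p of 0.0521 and called with the replicate block at 0.0147. Kmt2e, an MLL-family protein without clear methyltransferase activity, fell by 0.48 ± 0.15 (adjusted p = 0.0330). Kmt2a read 364 to 431 and 400 to 458 (0.09 ± 0.20) and Kmt2b differed by -0.19 ± 0.16. Setd1a differed by -0.53 ± 0.24 (adjusted p = 0.123, and 0.0438 with the block) and Setd1b by 0.01 ± 0.19. Setd2, which completes methylation of lysine 36 and is known to aid interferon signalling, read 469 to 686 against 395 to 471, a difference of -0.35 ± 0.18 that was not called. Setd3, an actin histidine methyltransferase, differed by 0.06, and Setd4 and Setd5 by 0.53 and 0.04, of which Setd4 had the widest spread, reading 78.3, 684 and 279 after DNA.

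Of the DNA methyltransferase genes, Dnmt3b, a de novo enzyme, fell. It read 230, 249 and 329 in media and 73.1, 203 and 127 after DNA, with no overlap, and fell 2.01-fold (log2 SE 0.31, limma adjusted p = 0.0327), although within number 2 the difference was only -0.27. The call was lost under quantile normalization (0.0928), median centring (0.105) and no filter (0.0534). Dnmt1, the maintenance enzyme, read 1228, 1272 and 996 in media and 621, 1273 and 608 after DNA. Array 2 stood at the media level, and the difference of -0.55 ± 0.26 was not called (adjusted p = 0.134). Without WT tumor DNA array 2 it was called at 0.00597, but that fit leaves out the very array that did not fall. The other Dnmt1 probe sets were above all their media values on array 2, at 1230 and 569. Dnmt3a, the other de novo enzyme, read 854 to 1560 and 875 to 2141, a difference of 0.04 ± 0.36. The cofactor Dnmt3l separated by number and not by group, at 115 to 145 on arrays numbered 1 and 411 to 902 on the rest.

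Of the TET genes only Tet1 was called after DNA. It read 25.4, 45.9 and 23.0 in media and 164, 98.3 and 116 after DNA. The media signals were near the floor and every DNA array was above them, a rise of 1.59 on the log2 scale (SE 0.30, limma adjusted p = 0.00364). Tet1 was the only tested member with group means under the filter level, those of WT media and STING tumor DNA, so it entered the test through the group where it was high. Tet2, the TET gene with known roles in myeloid cells, read 879, 680 and 732 in media and 1129, 1056 and 995 after DNA. The groups did not overlap, but the difference of 0.47 ± 0.17 missed the threshold (adjusted p = 0.0564), and the replicate block called it at 0.0161 (range 0.0124 to 0.249 over the alternatives that kept all arrays). Tet3 did not pass the filter, at 6.56 to 118 on the 9 arrays, and without the filter it differed by -0.73 ± 0.59.

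**Figure D2:**
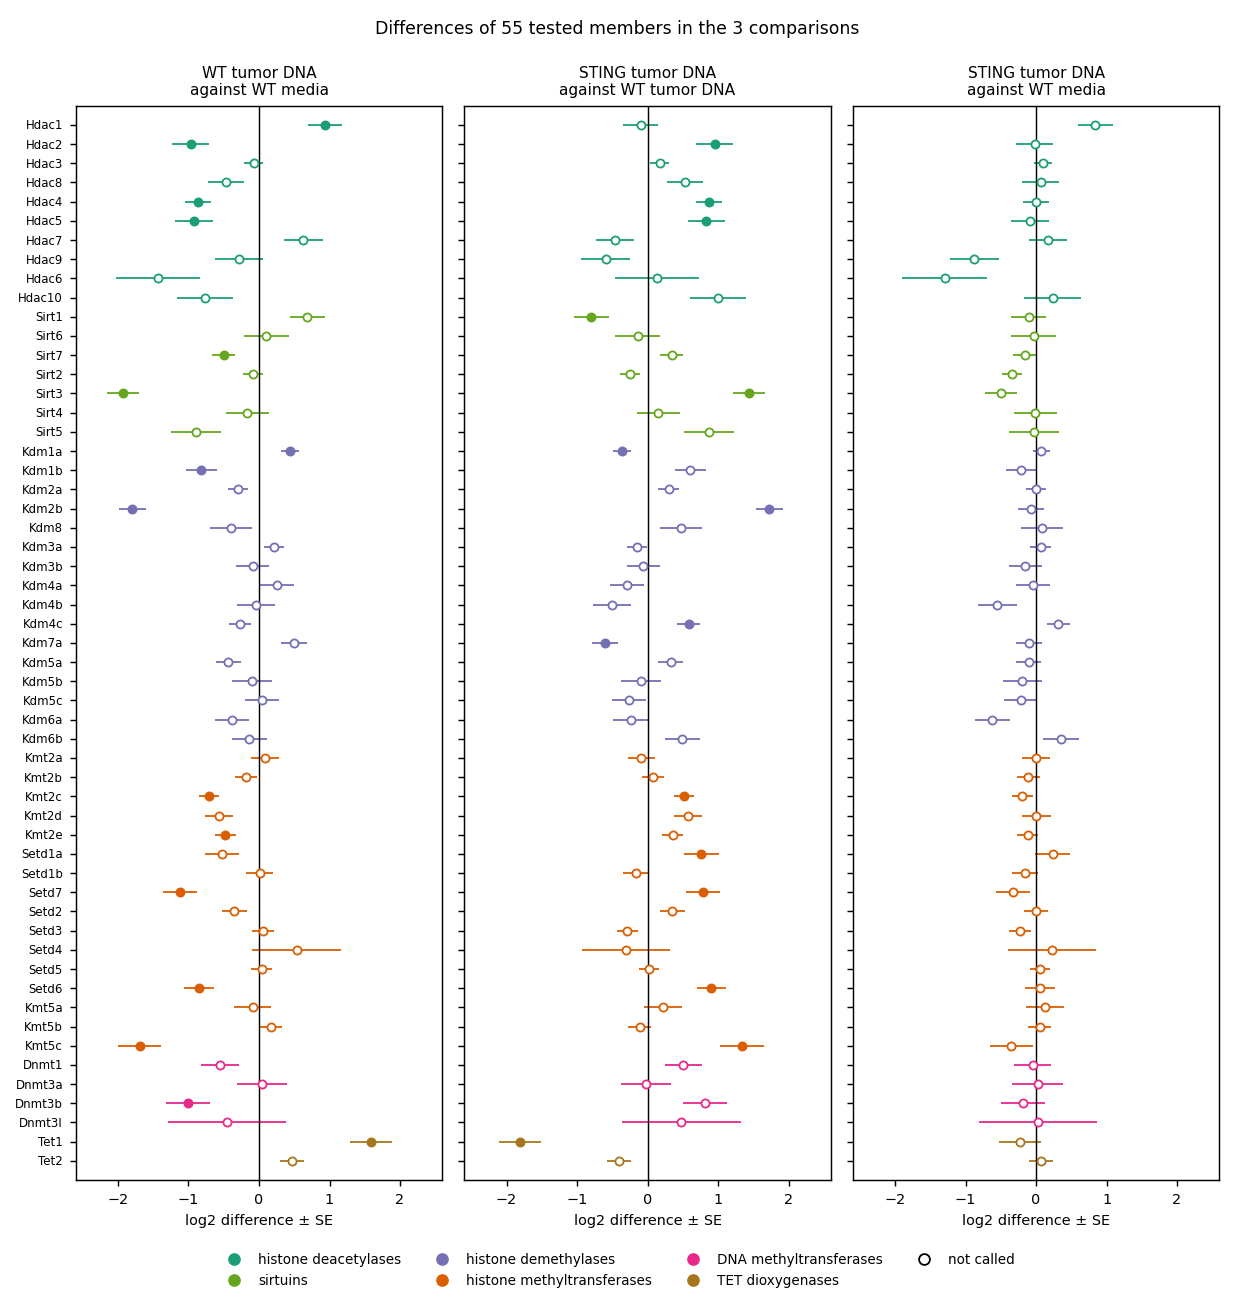
Log2 differences with standard errors (horizontal) of the 55 tested members (vertical, ordered by family) in the 3 comparisons, filled where called at an adjusted p below 0.05. Differences after DNA run from -1.93 for Sirt3 to 1.59 for Tet1, those of knockout against wild type under DNA from -1.81 to 1.72, and no point is filled in the comparison of knockout with DNA against wild-type media.

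The calls after DNA were unequally firm. Sirt3, Kdm2b and Kmt5c were called under every alternative run, leaving out any array or number included. With 1 array left out, Hdac1 was lost without WT media array 1 (adjusted p 0.0505) or WT tumor DNA array 3 (0.0564), Hdac2 without media array 2 (0.0593) or 3 (0.0625), and Hdac5 without media array 1 (0.0833) or DNA array 1 (0.0780) or 3 (0.0799). Kdm1a was lost without media array 2 (0.0734) or 3 (0.0665) or DNA array 3 (0.0521), and Kdm1b without media array 3 (0.0630) or DNA array 1 (0.0560). Dnmt3b was lost without any of the media arrays (0.0521, 0.0648 and 0.104) or DNA array 1 (0.0898) or 3 (0.0707). Leaving out all arrays numbered 1, 2 or 3 left 13, 9 and 4 members called, of which 11, 7 and 4 were among the 16. Kmt2e and Sirt7 were lost most often. Kmt2e was lost without media array 1 (0.109) or 3 (0.0622), any DNA array (0.0585, 0.0847 and 0.0541) or knockout array 3 (0.0556), and Sirt7 without media array 1 (0.129) or 2 (0.0651), any DNA array (0.0843, 0.0747 and 0.0828) or knockout array 2 (0.0515) or 3 (0.0647).

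In STING knockout cells given DNA, 11 members were higher than in wild-type cells given DNA and 4 were lower. The 11 were Kdm2b, Sirt3, Kmt5c, Hdac2, Setd6, Hdac4, Hdac5, Setd7, Setd1a, Kdm4c and Kmt2c, and the 4 were Tet1, Sirt1, Kdm7a and Kdm1a. This was 27.3% of the tested members, 7.27% for the lower ones, beside 31.5% of all genes, 21.8% higher and 9.73% lower. The members' median difference was 0.17, beside 0.20 over all genes. The signals did not overlap for 27 members, 20 higher and 7 lower, 49.1% beside 46% of all genes, of which 31.3% were higher and 14.7% lower. Unadjusted p-values were below 0.05 for 22 members beside 42.7% of all genes, and 23 members (41.8%) beside 38.3% of all genes were lower in the knockout. Median centring gave 1456 genes higher and 1805 lower in place of 2746 and 1224, and 5 members higher and 7 lower. It kept 9 of the 15 calls and lost Hdac2 (adjusted p 0.0692), Hdac5 (0.125), Kdm4c (0.176), Kmt2c (0.212), Setd1a (0.172) and Setd7 (0.121), while Tet2, Setd3 (0.0456) and Sirt2 (0.0419) were newly called lower. Quantile normalization also kept 9, losing Kdm7a (0.0513) in place of Hdac2, and called Tet2. The comparison shares the WT tumor DNA arrays with the preceding one, so opposite signs for a gene are not independent of each other.

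Kdm2b was 3.30-fold higher in the knockout (1.72 ± 0.19, limma adjusted p = 3.01e-04), at 2409, 2161 and 2495 beside 550 to 796 on the WT tumor DNA arrays. Its knockout arrays lay in the range of wild-type media. Sirt3 read 178, 168 and 208, above all wild-type DNA arrays, and differed by 1.43 ± 0.23 (adjusted p = 0.00151). Kmt5c read 559, 520 and 365, and differed by 1.34 ± 0.31 (adjusted p = 0.00884). The RelA methyltransferase Setd6 read 233, 385 and 291 and differed by 0.91 ± 0.21 (adjusted p = 0.00918). Setd7 read 2246, 1870 and 1478 and differed by 0.79 ± 0.24 (adjusted p = 0.0314). All 5 thus lay above the wild-type DNA arrays without overlap.

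Deacetylases Hdac2, Hdac4 and Hdac5 were also higher in the knockout. Hdac2 read 1440, 1544 and 1787 (0.95 ± 0.26, limma adjusted p = 0.0209), and Hdac4 read 350, 373 and 352 (0.87 ± 0.18, adjusted p = 0.00581). Hdac5 read 610, 505 and 508 and differed by 0.83 ± 0.27 (adjusted p = 0.0378), with 0.17 within number 2. Hdac1 did not share this pattern: its knockout arrays, at 2373, 3333 and 2781, overlapped the wild-type DNA arrays, and the difference was -0.10 ± 0.25 (adjusted p = 0.798). Hdac3 differed by 0.17 ± 0.13 and Hdac9 by -0.59 ± 0.34, neither called.

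Setd1a and Kdm4c were among the 11 too. Setd1a, catalytic subunit of a COMPASS complex that methylates lysine 4, read 330, 301 and 168 in the WT tumor DNA group and 503, 454 and 388 in the knockout, and differed by 0.76 ± 0.24 (limma adjusted p = 0.0380). Kdm4c, which removes methyl groups from lysines 9 and 36, read 267, 249 and 299 against 432, 429 and 383, a difference of 0.58 ± 0.16 (adjusted p = 0.0207). Both were above the WT tumor DNA arrays without overlap, and Kdm4c was also above the media arrays, at 304 to 347. Kmt2c differed by 0.52 ± 0.14 (adjusted p = 0.0216), and its partner Kmt2d by 0.57 ± 0.20, which only the replicate block called (0.0528 without it, 0.0145 with it). Dnmt3b differed by 0.82 ± 0.31 (0.0736 without the block, 0.0260 with it), Dnmt1 by 0.51 ± 0.26 and Dnmt3a by -0.02 ± 0.36. The block alone also called Hdac10 (0.0846 without it, 0.0154 with it), Sirt5 (0.0888 and 0.0191), Kdm1b (0.0587 and 0.0192) and Kmt2e (0.0951 and 0.0321), all higher in the knockout.

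Of the 4 that were lower, Tet1 read 25.9, 20.7 and 24.5 in the knockout against 164, 98.3 and 116, a difference of -1.81 ± 0.30 (limma adjusted p = 0.00177). The knockout signals were at the floor, as those of wild-type media were, so the size of the difference is not known and its test rests on a gene that entered through the WT tumor DNA group. Sirt1 read 1296, 999 and 1008 against 2748, 1299 and 1944, a difference of -0.80 ± 0.25 (adjusted p = 0.0333), with knockout array 1 only just under wild-type array 2. Kdm7a read 3115, 2197 and 2258 and differed by -0.60 ± 0.18 (adjusted p = 0.0314). Kdm1a read 1900, 1753 and 1763 against 2293 to 2349, a difference of -0.36 ± 0.12 (adjusted p = 0.0490). Tet2 read 950, 746 and 716, below all wild-type DNA arrays, and differed by -0.40 ± 0.17, called with the block only (0.0995 without it, 0.0331 with it). Setd2 and Kdm6b differed by 0.35 ± 0.18 and 0.49 ± 0.25, and Kmt2a and Kdm5b by -0.09 each.

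**Figure D3:**
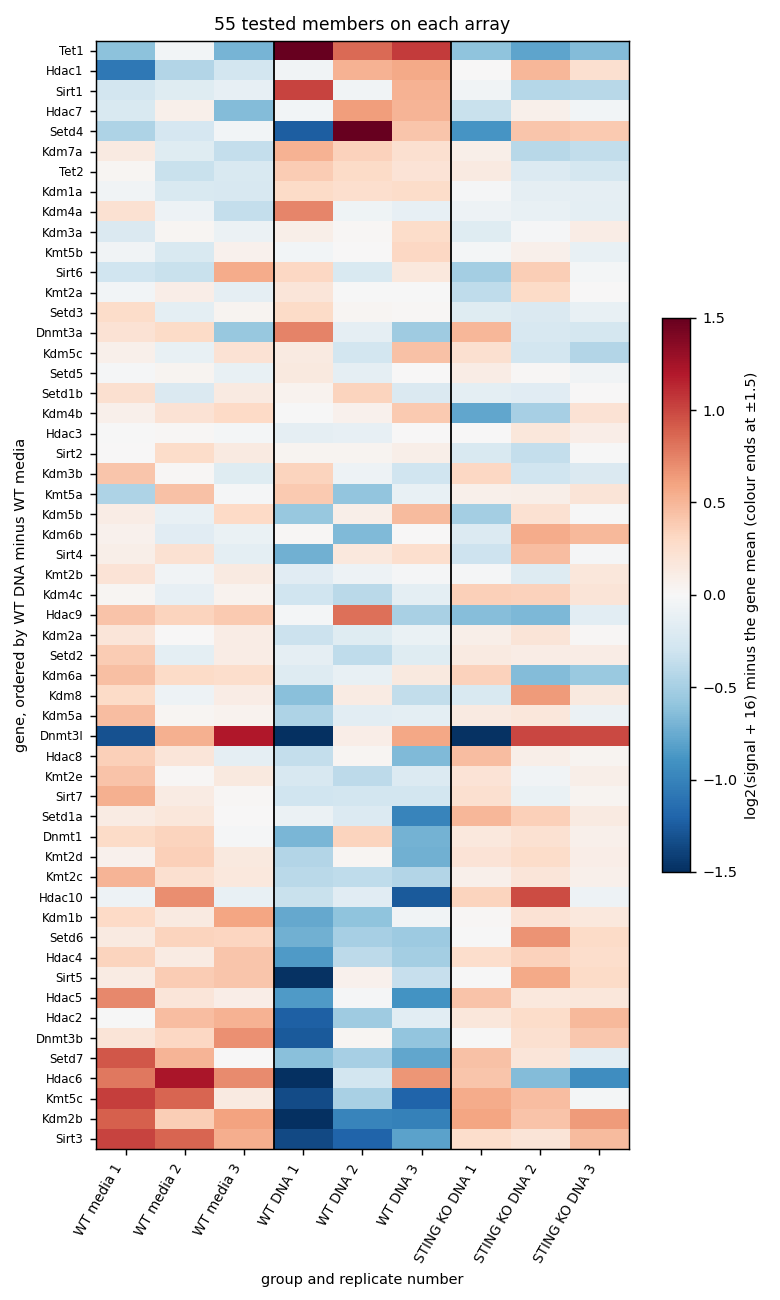
Log2(signal + 16) minus the gene's mean (colour, red above and blue below, ending at ±1.5) of the 55 tested members (rows, ordered by the difference after DNA) on the 9 arrays (columns, by group and number). Tet1 at the top is red on the 3 WT tumor DNA arrays alone, Hdac1 is red or near white on the DNA arrays of both genotypes, and Dnmt3l is blue on all arrays numbered 1.

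The comparison was also run without the 2 knockout arrays with low Xist. Then 1 member was called higher, Kdm2b (adjusted p 0.0157), and 0 lower, and the lone knockout array was assumed to vary like the other groups. Sirt3 (0.0527), Tet1 (0.0534), Kmt5c (0.0662) and Setd7 (0.0851) came next. The others had adjusted p-values of 0.120 (Hdac4) to 0.497 (Kdm7a). The differences of Kdm2b, Sirt3, Kmt5c and Setd7 were then 1.76, 1.39, 1.57 and 1.08, and those of Hdac2, Hdac4, Hdac5, Setd6, Setd1a, Kdm4c and Kmt2c 0.81, 0.84, 1.01, 0.58, 0.93, 0.64 and 0.48. On the lower side Tet1, Sirt1, Kdm7a and Kdm1a differed by -1.73, -0.55, -0.28 and -0.29.

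With only 1 array left out, Kdm2b, Sirt3, Kmt5c, Hdac4, Setd6 remained called each time, and Tet1 too, with the limit given above. Hdac2 was lost when DNA array 1 (0.0510) of the wild type was left out, or knockout array 2 (0.0536) or 3 (0.0755), and Sirt1 without DNA array 1 (0.0936) or 3 (0.0787) or knockout array 2 (0.101) or 3 (0.102). Hdac5 was lost without DNA array 1 (0.115) or 3 (0.118) or any knockout array (0.102, 0.0753 and 0.0798), and Setd7 without DNA array 1 (0.0715) or 3 (0.0891) or knockout array 1 (0.0974) or 2 (0.0829). Kdm7a was lost without DNA array 1 (0.0954) or 2 (0.0598) or knockout array 2 (0.111) or 3 (0.109), and Kmt2c without DNA array 3 (0.0546) or knockout array 2 (0.0811) or 3 (0.0614). Kdm4c was lost without DNA array 2 (0.0552) or knockout array 1 (0.0627) or 2 (0.0711). Setd1a was lost without media array 2 (0.0521) or 3 (0.0530), DNA array 3 (0.0930) or any knockout array (0.105, 0.0964 and 0.0594), and Kdm1a without any single array (0.0502 to 0.141). Leaving out all arrays numbered 1, 2 or 3 left 10, 8 and 4 members called, of which 8, 7 and 4 were among the 15.

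Against wild-type cells in media, knockout cells given DNA had 0 of the 55 members called by limma, beside 0.429% of all genes, and 4 members (7.27%) had an unadjusted p below 0.05, beside 7.53% of all genes. The signals did not overlap for 6 members, 2 higher and 4 lower, 10.9% beside 13.8% of all genes, of which 5.93% were higher and 7.88% lower. The difference was below 0 for 33 members, beside 51.5% of all genes. The largest difference upwards was that of Hdac1, whose knockout arrays at 2373, 3333 and 2781 were all above the media arrays at 1116, 1741 and 1948. It amounted to 0.84 ± 0.25 (adjusted p = 0.339), and the replicate block called it at 0.0201, while adjusted p ranged from 0.0201 to 0.419 over the alternatives that kept all arrays. Hdac9 read 36.1, 34.9 and 56.9 in the knockout, under all media arrays, and differed by -0.87 ± 0.34 (adjusted p = 0.574), and Hdac6 differed by -1.30 ± 0.60 (0.675). Sirt3 stood between the other groups at -0.50 ± 0.23 (0.672), and Kdm2b, Hdac2 and Hdac4 differed by -0.07, -0.02 and 0.00. Without knockout arrays 2 and 3, Hdac1 differed by 0.60, Hdac9 by -1.02, Hdac6 by -0.50 and Sirt3 by -0.54, none of them called.

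Hdac1 lies on chromosome 4, where genes called in this comparison were frequent. Of 760 tested genes on that chromosome 14 were called, 1.84%, beside 40 of 11800 elsewhere, 0.339%. With the block the shares were 3.95% and 1.23%. Among the 5 tested genes on either side of Hdac1, Zbtb8a differed by 1.54 ± 0.31 and was called with the block (adjusted p = 0.0489, and 0.0852 without it), while the nearest ones, Marcksl1 and Eif3i, differed by -0.28 and -0.13 and were not called. Kdm4c, Kdm1a and Kdm4a lie on chromosome 4 too and differed by 0.31 ± 0.16, 0.07 and -0.04, none called. The knockout arrays of Kdm4c, at 432, 429 and 383, were all above its media arrays, at 304 to 347. Whether the place on the chromosome bears on the Hdac1 or Kdm4c signal of the knockout was not tested. Kdm3b and Hdac3, which lie on the chromosome of Sting1 with 15 and 24 tested genes between, differed by -0.15 ± 0.24 and 0.10 ± 0.13.

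Some members on the sex chromosomes separated the knockout arrays as Xist did. Kdm6a, an X-linked gene known to escape X inactivation, read 1509, 751 and 802 on the knockout arrays. Arrays 2 and 3 were under all others and array 1 was within the media range, so the group difference from wild-type DNA, -0.24 ± 0.25, covers 2 unlike sets. Without knockout array 1, Kdm6a was called lower in the knockout against wild-type DNA (limma adjusted p = 0.0440) and against media (0.0436). Its second probe set read 1057, 553 and 477.5 in the knockout. The Y-linked Kdm5d did not pass the filter and its chosen probe set read 17.6 to 66.3 throughout, but another read 11.1, 377 and 278 on the knockout arrays and at most 43.3 elsewhere. For the X-linked Kdm5c the chosen probe set read 673, 465 and 413 against 466 to 776 with DNA in wild-type cells, and a weaker one read 39.9, 15.9 and 5.22 against 69.1 to 107. In the weaker one knockout array 1 was also under all wild-type arrays, the lowest of which read 52.6. Another of the 9 Kdm5c probe sets read 159, 124 and 146 in the knockout, within the 79.5 to 208 of the wild-type arrays. The X-linked deacetylases did not set knockout arrays 2 and 3 apart from the wild type. Hdac6 read 100, 39.7 and 29.9 on the knockout arrays and 6.57 to 188 on the wild-type arrays. Hdac8 read 160, 120 and 116 against 64.8 to 148.

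**Figure D4:**
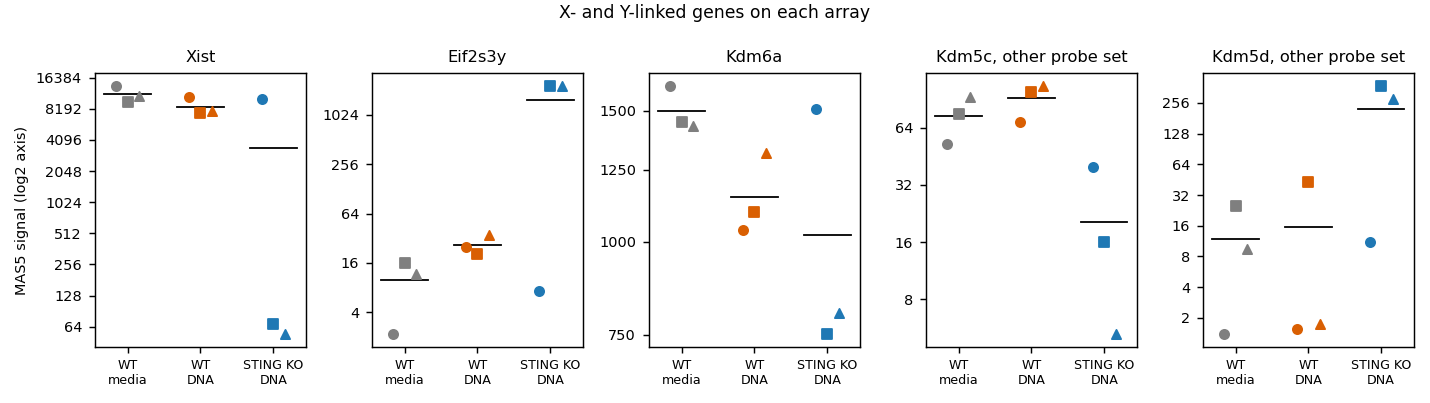
MAS5 signal (vertical, log2 axis) of Xist, the Y-linked Eif2s3y, Kdm6a and one further probe set each of Kdm5c and Kdm5d on the 9 arrays. Symbols mark the array number and lines the mean of 3 signals, and knockout arrays 2 (square) and 3 (triangle) are apart from array 1 (circle) in each panel, with Kdm6a at 751 and 802 beside 1509.

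Other probe sets of the same genes were set beside the chosen ones. Of the 16 members called after DNA, 10 had 17 further probe sets above the filter, of which 14 differed in the same direction and 10 did so without overlap. For the 15 called between genotypes the figures were 10 members, 15 probe sets, 12 and 9. The chosen probe sets of Kdm2b, Hdac2, Hdac3, Kdm1a, Dnmt1 and Dnmt3l are of a design that can also match transcripts of other genes. The other Kdm2b probe set above the filter differed by -1.67 after DNA, close to the chosen one. A second Hdac2 probe set read 900, 1111 and 1174 in media and 398, 537 and 755 after DNA, much as the first, and another, weaker one, at 23.6 to 71.3 in wild-type cells, differed by -0.03. Both other Hdac4 probe sets, at -1.02 and -1.31, and that of Setd6, at -1.18, were lower after DNA. A second Kdm7a probe set read 245, 277 and 273 in media and 633, 600 and 694 after DNA, a wider gap (1.23) than that of the chosen one.

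Other probe sets did not always follow the chosen one after DNA. Examples were Setd7, Dnmt3b, Dnmt3a, Hdac7, Kdm5b, Kdm5c and Kmt5b, and in part Tet1. The other probe sets of Tet1 differed by -0.32, 0.95 and 0.85, the latter pair being under the filter level but higher without overlap. Between genotypes they differed by 0.26, -1.67 and -1.87. The 4 others of Dnmt3a ran from -0.31 to 0.96 beside 0.04. With the mean of a gene's probe sets above the filter in place of the strongest, Tet1 was called neither after DNA (limma adjusted p = 0.137) nor between genotypes (0.0794). The call of Setd7 after DNA was lost in the same way (0.136), its second probe set reading at most 87.4. For Dnmt3b the other probe set differed by 0.16 (0.119 with the mean). Kdm5b, not called by its chosen probe set, had another at 79.6, 63.2 and 109 in media and 27.7, 40.1 and 35.9 after DNA, a difference of -0.96. Between genotypes the other Setd1a probe set did not follow the chosen one. It read 15.4, 54.0 and 49.1 in the knockout against 33.5 to 42.7 with DNA in wild-type cells, and differed by -0.02. The weaker Hdac2 probe set differed by -0.61 there.

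**Figure D5:**
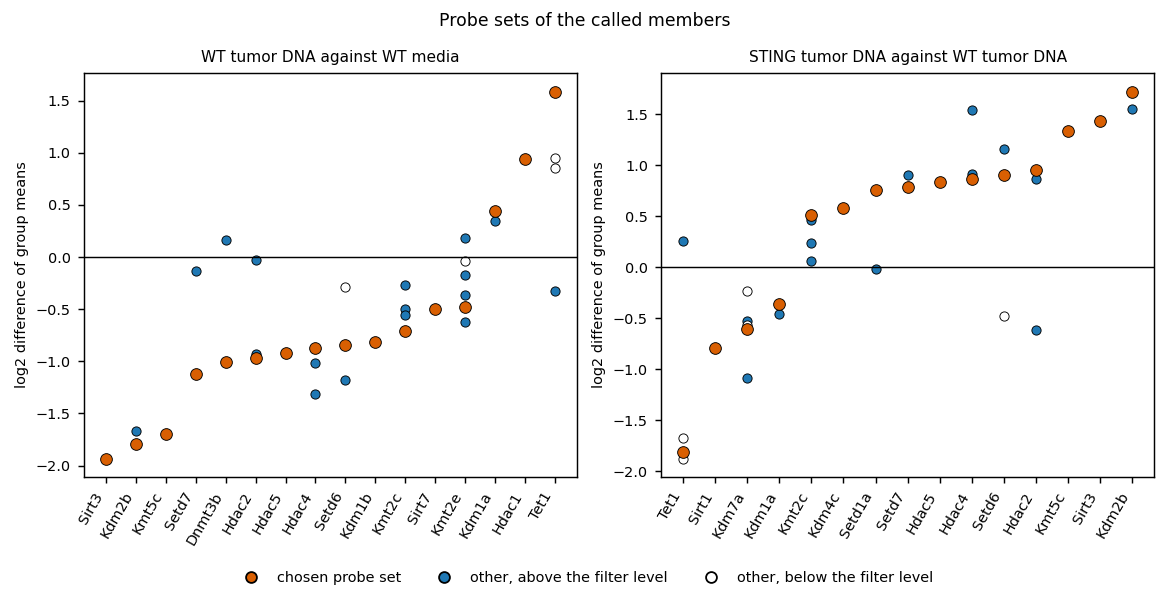
Log2 difference of group means (vertical) for every probe set of the members called after DNA (left) and between genotypes under DNA (right), ordered by the chosen probe set (orange). Blue points are other probe sets above the filter level and open points those under it, and Tet1 has a blue point at -0.32 beside its chosen probe set at 1.59.

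Other genes that act with these enzymes, a list of 77 of which 70 were tested, showed calls in both directions. After DNA 11 were higher and 16 lower, with a median of -0.29, and between genotypes 16 were higher and 11 lower in the knockout, with a median of 0.23. Over all genes 9.94% and 23.6% were called after DNA, with a median of -0.20, and 21.8% and 9.73% between genotypes, with a median of 0.20. None was called between knockout cells with DNA and wild-type media. Setdb2, a lysine 9 methyltransferase known to be induced by interferon, read 459, 468 and 467 in media and 2815, 1900 and 3097 after DNA, and 515, 380 and 310 in the knockout. It rose by 2.42 ± 0.23 (limma adjusted p = 2.44e-04). Of 18 other lysine methyltransferases 3 were higher and 6 lower, the latter including Smyd3 (-1.44), Smyd2 (-1.25) and the lysine 9 enzyme Ehmt1 (-1.09).

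Of 12 acetyltransferases, the enzymes that oppose the deacetylases, 4 were higher after DNA and 2 lower. Hat1 rose by 1.59 ± 0.23 and Kat2b by 1.32 ± 0.19, while Kat2a, the paralog of Kat2b, fell by 1.35 ± 0.27. Among 16 corepressor genes that partner Hdac1, Hdac2 or Hdac3, 3 were higher and 4 lower. Subunits of the NuRD complex were on both sides, with Gatad2a at 1.01 ± 0.12 and Mbd2 at 0.81 ± 0.15 but Mbd3 at -1.28 ± 0.21. Of 10 Polycomb and MLL partners, Jarid2 rose by 1.07 ± 0.22 and Eed, Wdr5 and Ash2l fell by 0.62, 1.09 and 0.77. Riox1 was the only one called of 8 other JmjC and partner demethylases after DNA, at -1.18 ± 0.16, and none of 6 methyl-CpG readers and DNA methylation partners was called.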

How the data were processed

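Linear signal intensities of 9 Affymetrix mouse arrays were deposited, made with MAS5 per the submitters' processing notes. No version is given in the sources used here, and detection calls were not used. The trimmed mean lay between 500.003 and 500.004 on all arrays, which shows scaling to a shared target. A weak signal may be background, and the number of arrays limits the precision. The table held 45101 probe sets. After 64 controls were left out, 34945 had 1 gene symbol in the platform annotation, 932 several and 9160 none, and only the first were named.

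Signals were analysed as log2(signal + 16). Probe sets above the 40th percentile of the mean (5.67) were kept, and the one with the highest mean stood for a gene. All 9 arrays were fitted with limma 3.58.1 (lmFit, eBayes with an intensity trend) in R 4.3.3, leaving the replicate number out. The p-values, 2-sided, were adjusted by Benjamini-Hochberg over 12586 genes in each of 3 comparisons. The model was tested on simulated data with independent arrays, which held no shared deviation by replicate number, so that test does not cover such pairing. The members and lists were chosen with earlier results of these data known, so no test of the list as a whole was made.

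Members named with full values were, among those called without overlap, the 8 with the largest difference in each direction in the first 2 comparisons and 4 in the third, and a set named whatever its result, such as Hdac3, Kmt2a and Dnmt1. Further members given in detail, and the genes named from the wider list, were chosen after their values were seen. Residuals of arrays with the same number, taken from the titles, correlated at 0.17 to 0.49 over 9 pairs and those of different numbers at -0.42 to 0.14 over 18, so numbers were taken to pair the samples. For members, values with that number as a block are stated where a call differs. Promoter windows and gene places are from RefSeq (GRCm38.p6), in which all 59 members matched and 48 had a window. Alternatives were other offsets (1 and 64), quantile normalization, median centring, no filter, no trend, the mean of probe sets, the block, and leaving out arrays.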

Additional observations from a re-analysis of the deposited data

How the results depend on the processing

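Scaling moved the counts. After DNA, quantile normalization called 6 members higher and 8 lower and median centring 8 and 5, in place of 3 and 13; over all genes centring gave 2038 and 1451 in place of 1251 and 2973. Between genotypes under DNA, quantile normalization called 6 members higher and centring 5 higher and 7 lower, in place of 11 and 4; over all genes centring gave 1456 higher in place of 2746. Without the intensity trend 2 members were lower in that comparison. The cause was not tested. With the replicate block, 6 members were called higher after DNA, 17 higher in the knockout under DNA, and 1 higher (Hdac1) in the knockout with DNA against media, where 86 genes were higher and 90 lower in place of 21 and 33. The block kept all 16 and all 15 member calls of the first 2 comparisons and added 7 to each. How far the calls over all genes rose with the block in these 2 comparisons is not given here. The added member calls are therefore not read as particular to the members. An added alternative, chosen after seeing the data, left out both knockout arrays with low Xist: between genotypes 1 member was higher and 0 lower, and 594 and 530 genes, and against media 9 and 13 genes. With fewer arrays in a group, fewer calls can pass.

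Leaving out 1 array or number, members called after DNA were 0 to 5 higher and 4 to 14 lower, between genotypes 3 to 14 higher and 1 to 4 lower, and against media 0 to 1 lower. Among the fits that left out 1 array or 1 number, the fewest member calls in total, 4 in each of the first 2 comparisons, came without the arrays numbered 3. Over all genes the ranges were 479 to 1280 higher and 1013 to 2927 lower after DNA, 850 to 2704 and 529 to 1245 between genotypes, and 1 to 39 and 3 to 92 against media. No member called in a comparison changed sign under any alternative run. Weak signals, such as those of Tet1 outside the WT tumor DNA group and of Tet3, cannot be ordered.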
